A study of Mus musculus with 6 samples.

Results

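Hepatokines are proteins that the liver secretes and that act on other organs or on the liver itself. The transcripts of 10 such genes were followed in mouse liver: Enho, Fgf21, Gdf15, Inhbe, Inhbc, Fgl1, Angptl6, Igfbp2, Ahsg and Fetub. They were taken by gene symbol from a table of 16638 genes, and all 10 were found in it. A gene was tested where the 6 libraries averaged 0.5 FPKM or more, which all 10 members and 10745 genes in all did. FPKM is a fragment count scaled by the length of the gene and the depth of the library, so that levels can be set side by side. It does not correct for the share of fragments taken by abundant transcripts. That share differed between the groups for albumin, which limits comparison between livers. The members were selected on their role as secreted liver factors, with the difference in FPKM between HA and PBS already known, so whether a member passed the test is a description of these libraries and not independent evidence.

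The livers came from an obese mouse model, in which 3 livers followed HA treatment and 3 followed PBS, a buffered salt solution. HA is hippuric acid, which forms when glycine is joined to benzoic acid. It was given intraperitoneally for 5 weeks at 60 mg/kg on 2 occasions a week, and the schedule of PBS is not stated. The labels give no strain, age, sex or type of obesity, and they do not say that each liver is a separate animal, so a p-value here weighs a difference against the spread of these 6 libraries only, which may be technical. The contrast addresses what the liver transcribes differently under the compound.

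Adropin, the peptide encoded by Enho, is secreted by liver and brain and is linked to glucose and lipid handling. FGF21 and GDF15 are stress-inducible hormones: FGF21 signals through an FGF receptor with beta-klotho (Klb) as its co-receptor, and GDF15 signals through GFRAL in the hindbrain and lowers food intake. Inhbe and Inhbc encode the activin beta-E and beta-C subunits, liver-enriched members of the TGF-beta family. FGL1 is a fibrinogen-related protein of hepatocytes that also binds the immune receptor LAG3, and ANGPTL6 is an angiopoietin-like protein. IGFBP2 binds insulin-like growth factors. AHSG (fetuin-A) and FETUB (fetuin-B) are plasma proteins of the cystatin superfamily, and fetuin-A is known to inhibit the insulin receptor.

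Of the 10 members, 8 had an entry in the RefSeq promoter table (build GRCm38.p6) and Enho and Fgl1 had none. The 250 bases before each start were searched on both strands for TGATGNAA, the letters of the element that ATF4 and C/EBP factors bind in amino acid and stress responses. The letters were found in 2 of the 8 members, Fgf21 and Inhbe, once in each, and in 3.40% of the 32536 promoter windows of the table. These 2 windows are shown because both genes carry the same letters on the strand opposite to the gene, beginning 139 bases before the start of Fgf21 and 181 bases before that of Inhbe. Both lie on the minus strand, at chr7:45615491-45615740 and chr10:127351849-127352098, and are written 5′ to 3′ along the gene with the match in capitals.
Fgf21: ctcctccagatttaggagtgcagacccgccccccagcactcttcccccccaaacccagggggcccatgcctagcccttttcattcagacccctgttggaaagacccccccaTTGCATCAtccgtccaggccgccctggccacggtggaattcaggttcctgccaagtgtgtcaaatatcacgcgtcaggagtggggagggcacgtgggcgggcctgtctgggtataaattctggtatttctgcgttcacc
Inhbe: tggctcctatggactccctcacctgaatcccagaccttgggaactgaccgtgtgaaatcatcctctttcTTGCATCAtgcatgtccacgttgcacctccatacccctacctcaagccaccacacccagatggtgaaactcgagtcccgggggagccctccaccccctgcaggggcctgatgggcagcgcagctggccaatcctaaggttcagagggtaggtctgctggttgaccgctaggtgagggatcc
Neither entry of Gdf15 held the letters. TATAAA was found before Fgf21 and in 1 of the 2 entries of Fetub, 28 and 31 bases from the start. It was present in 12.3% of all windows. CACGTG was found before Fgf21, in 1 of the 2 entries of Gdf15 and in 1 of the 2 entries of Igfbp2, and in 6.04% of all windows.  The matches overlapped no other match. They are a description of the letters in these windows.

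The libraries held 37921444 to 39908844 fragments each. Hepatocyte markers dominated all 6 libraries, as the liver label states. Over 8 of 8 markers, they summed to 49924 to 61506 FPKM in the PBS livers and to 76201 to 90411 FPKM with HA. Most of the sum was albumin, and the markers did not rise together. Alb and Apoa1 were higher in all HA livers and Asgr1 was lower. Ttr, Hnf4a, Cps1, Tat and Serpinc1 overlapped between groups. Albumin (Alb) alone took 7.53 to 9.82% of the fragments with PBS and 12.5 to 14.7% with HA. PBS replicate 1 stood apart: 6 adrenal markers summed to 61.7 FPKM there against 0.150 to 0.391 FPKM in the other libraries, and 6 skeletal muscle markers to 56.4 against 0.264 to 0.992 FPKM. Red cell markers summed to 227 to 335 FPKM in the PBS livers and to 699 to 1320 FPKM with HA, neutrophil and lymphocyte markers to 2.33 to 4.58 and 5.83 to 10.1 FPKM, and bile duct markers to 13.4 to 23.5 and 24.9 to 29.5 FPKM, with no overlap between groups in these 3 sums. Their part in the results was not tested. In whole liver, fewer cells of a type and less RNA per cell cannot be told apart.

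The 10 transcripts differed in direction. Enho and Fgl1 rose with HA, 5.05-fold and 2.88-fold in mean FPKM, and were the 2 members past the threshold over all genes tested (limma on log2(FPKM + 1), adjusted p under 0.05). The other 8 did not pass, and 0 of the 10 were called lower with HA. Over all 10745 genes tested, 0.800% were called, 0.289% higher (31 genes) and 0.512% lower (55 genes) with HA. That split was 36 higher and 32 lower after median centring, and 33 higher and 24 lower when FPKM was rescaled to fragments of genes other than Alb. The 3 HA values lay above all 3 PBS values for Enho, Fgl1, Igfbp2 and Ahsg, below them for Gdf15, and overlapped them for the other 5, beside 25.6% of all genes tested without overlap, 6.47% above and 19.2% below. The log2 fold change was positive for 5 members and negative for 5, against 37.2% positive over all genes tested and a median of -0.06.

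**Figure D1:**
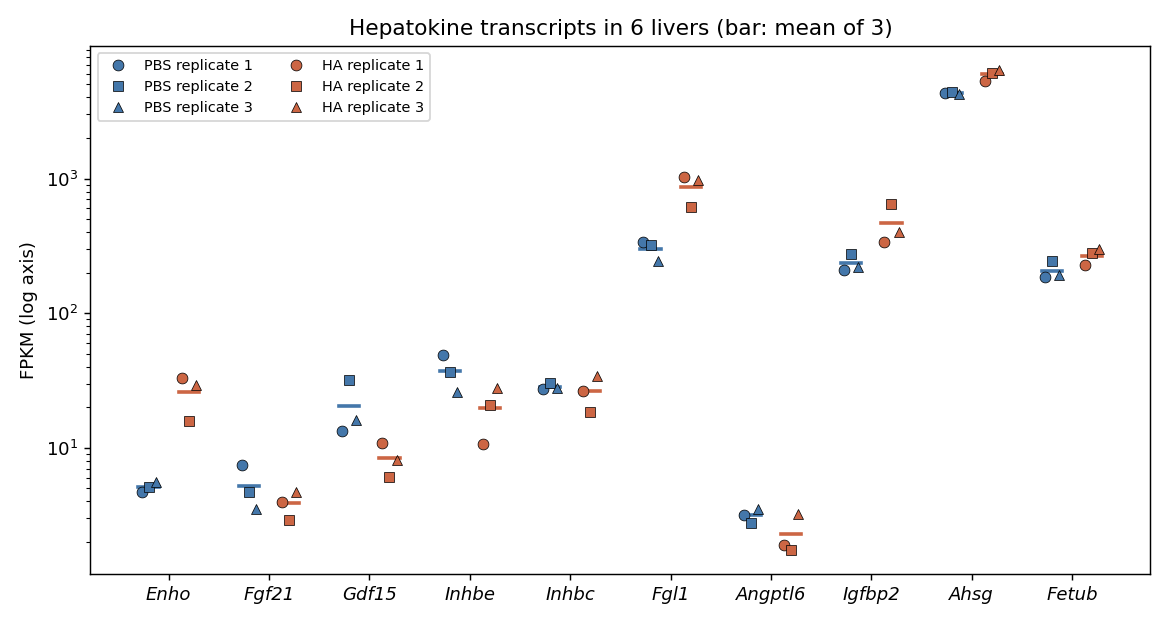
FPKM on a log axis for the 10 hepatokine genes, with 1 point per library (circle, square and triangle for replicates 1, 2 and 3) and a bar at the mean of 3, PBS in blue and HA in orange. Enho and Fgl1 are higher in all 3 HA livers, the fetuin transcript Ahsg is the most abundant, and the groups of Fgf21, Inhbe, Inhbc, Angptl6 and Fetub overlap.

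Enho was at 4.72, 5.14 and 5.56 FPKM in PBS replicates 1 to 3 and at 32.9, 15.9 and 29.0 FPKM in HA replicates 1 to 3. The PBS livers were close together and all 3 HA livers were well above them, with HA replicate 2 the lowest of the 3. The means were 5.14 ± 0.419 and 26.0 ± 8.91 FPKM (SD, n = 3 per group). The log2 fold change was 2.07 (SE 0.25, 95% interval 1.50 to 2.65, limma adjusted p = 0.0272), which placed Enho 16th of all genes tested by size of change in either direction. The values rested on 230 to 265 fragments per PBS library and 759 to 1616 per HA library. Leaving out PBS replicate 1, 2 or 3 ended the call (limma adjusted p = 0.122, 0.121 and 0.117) as did leaving out HA replicate 3 (limma adjusted p = 0.0591), while the log2 fold change stayed between 1.88 and 2.38 when any 1 library was left out. With no filter the call was also lost (limma adjusted p = 0.0806).

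In the GENCODE annotation (GRCm38), Enho shares 15 bases of exon with Dnai1, a gene of the motile cilium on the opposite strand, and the use of strand in counting is not given in the sources used here. Dnai1 held 3, 0 and 1 fragments in PBS replicates 1 to 3 and 191, 5 and 96 in HA replicates 1 to 3. Its level was at most 0.0301 FPKM with PBS and was 1.90, 0.0512 and 0.991 FPKM with HA, so it was higher in the same 2 HA livers in which Enho was highest. Fragments of the shared stretch cannot be assigned to either gene, and Dnai1, which was chosen after its values were seen, was not tested because its mean lay under the filter.

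Fgl1 was at 339, 323 and 243 FPKM in PBS replicates 1 to 3 and at 1026, 611 and 969 FPKM in HA replicates 1 to 3. All HA livers were above all PBS livers, and HA replicate 2 was again the lowest of its group. The means were 302 ± 51.7 and 869 ± 225 FPKM (SD, n = 3 per group), and log2 values differed by 1.50 (SE 0.23, 95% interval 0.97 to 2.03, limma adjusted p = 0.0424). The call was kept without HA replicate 2 (limma adjusted p = 0.0152) and lost without any other single library (limma adjusted p = 0.0868 to 0.147). With no filter it was also lost (limma adjusted p = 0.0858). By level, Fgl1 was 99th of the 10745 genes tested.

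Albumin, the most abundant plasma protein made by hepatocytes, was used as a reference within each liver. Alb was 41433 ± 5692 and 67632 ± 5860 FPKM (SD, n = 3 per group) with PBS and HA and did not pass (log2 fold change 0.71, SE 0.16, limma adjusted p = 0.0864). All HA livers were above all PBS livers in Alb, so a ratio to Alb also carries that difference. The FPKM ratio of Fgl1 to Alb was 0.00846, 0.00885 and 0.00509 in PBS replicates 1 to 3 and 0.0145, 0.0100 and 0.0136 in HA replicates 1 to 3. The ratio of Enho to Fgl1 was 0.0139, 0.0159 and 0.0229 with PBS and 0.0321, 0.0261 and 0.0300 with HA. The groups did not overlap in either ratio, so within each liver Enho stood higher against Fgl1 in all HA libraries. These ratios were described and not tested.

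**Figure D2:**
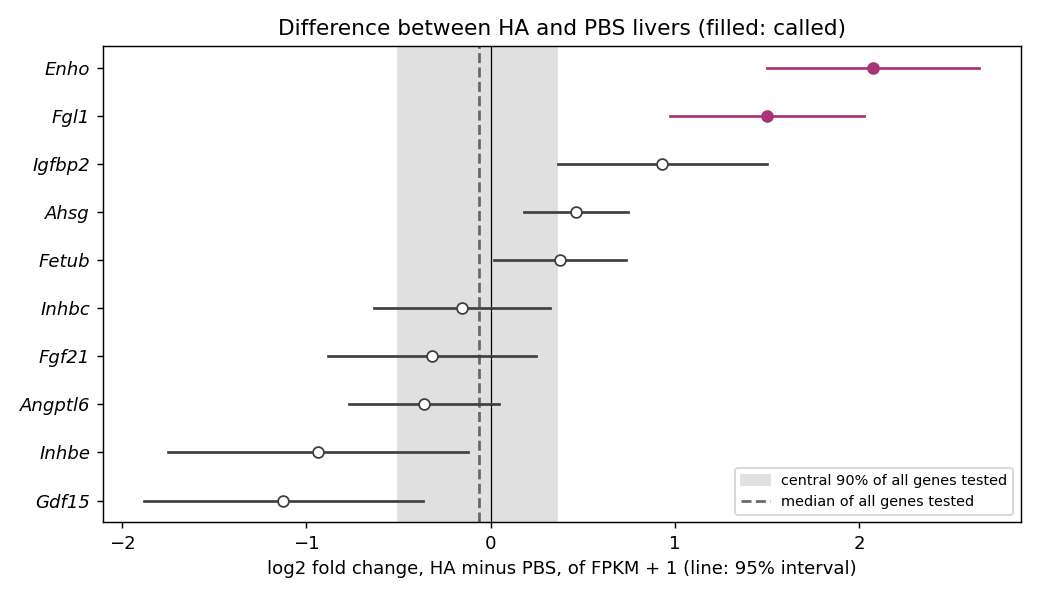
Log2 fold change of FPKM + 1, HA minus PBS, for each hepatokine gene with its 95% interval, ordered by size and filled where the gene passed over all genes tested. The grey band spans the 5th to the 95th percentile of all genes tested (-0.50 to 0.36) and the dashed line their median (-0.06); Enho, Fgl1, Igfbp2, Ahsg and Fetub lie to the right of the band, and Gdf15 and Inhbe to its left with wide intervals.

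Likeness to Enho and Fgl1 was measured as the root mean square difference of log2(FPKM + 1) over the 6 libraries, after centring each gene on its own mean, among 9439 other genes averaging 1 FPKM or more. Among the closest to Enho were the magnesium transporter gene Nipal1 (difference 0.32 log2 units) and Fgl1 itself (0.36). Nipal1 was at 0.432, 0.787 and 1.65 FPKM in PBS replicates 1 to 3 and at 11.9, 6.59 and 7.08 FPKM in HA replicates 1 to 3. All HA livers were above all PBS livers, and HA replicate 2 was the lowest of its group. Genes chosen for likeness over these 6 libraries largely share such features by that choice, so the features are not separate evidence. The means were 0.956 ± 0.626 and 8.52 ± 2.94 FPKM (limma adjusted p = 0.0272, SD, n = 3 per group).

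Among the profiles closest to Fgl1 were those of Slc3a1, a subunit of a cystine and dibasic amino acid transporter (0.24), A2ml1, of the alpha-2-macroglobulin family (0.24), and Aldoc, a glycolytic aldolase (0.25), with 1 unnamed gene model closer than Aldoc passed over. Slc3a1 rose from 24.1 ± 1.07 to 58.3 ± 14.0 FPKM (limma adjusted p = 0.0399, n = 3 per group). A2ml1 was at 2.42 ± 0.289 and 6.75 ± 2.78 FPKM and Aldoc at 0.972 ± 0.235 and 3.38 ± 1.45 FPKM, and neither passed (limma adjusted p = 0.0894 and 0.0756). HA replicate 2 was the lowest of the HA livers in all 3, as it was in Fgl1, which largely follows from choosing them for likeness to Fgl1. Nipal1 did not pass with PBS replicate 1, PBS replicate 2 or HA replicate 3 left out, or with no filter (limma adjusted p = 0.0586 to 0.121). Slc3a1 did not pass with any 1 PBS replicate or HA replicate 3 left out, or with no filter (limma adjusted p = 0.0720 to 0.147).

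**Figure D3:**
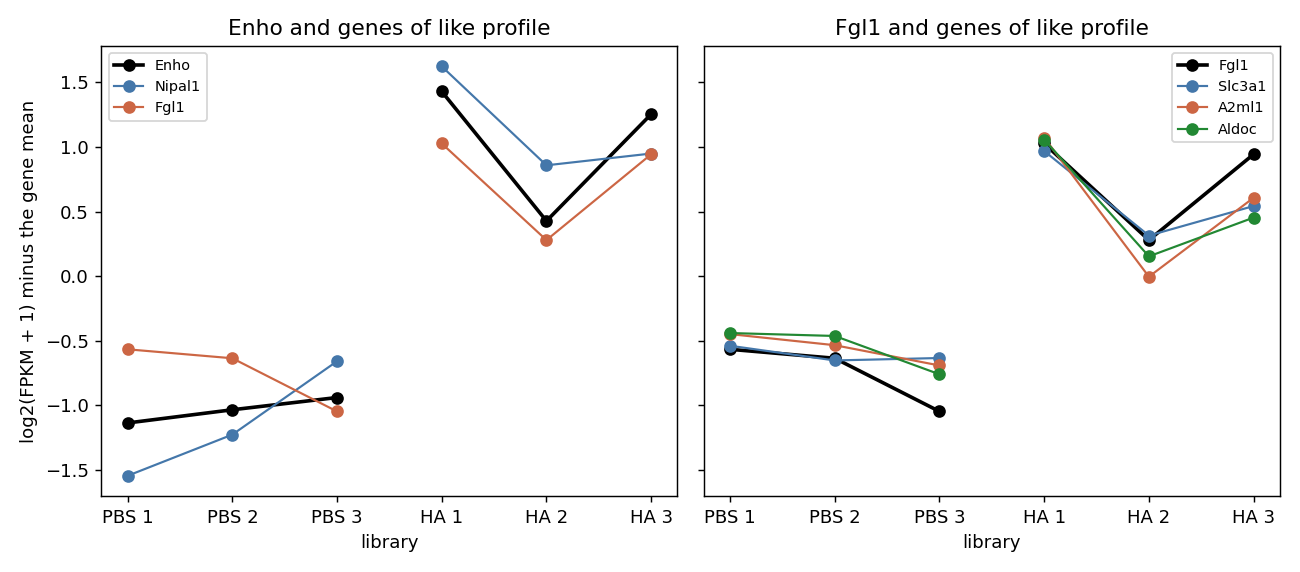
Log2(FPKM + 1) minus the mean of each gene over 6 libraries, for Enho (left, black) and Fgl1 (right, black) with genes of like profile in colour. Lines join the points of 1 gene within a group and carry no order. In both panels the PBS points lie below the HA points, and HA replicate 2 dips in Enho and Fgl1.

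Among the stress-inducible ligands, Gdf15 was at 13.2, 31.8 and 16.2 FPKM in PBS replicates 1 to 3 and at 10.9, 6.10 and 8.17 FPKM in HA replicates 1 to 3. All HA livers were below all PBS livers, but PBS replicate 2 stood well above the other PBS livers. The mean was 2.44-fold lower with HA (log2 fold change -1.13, SE 0.32, 95% interval -1.88 to -0.37), and Gdf15 did not pass over all genes (limma adjusted p = 0.143). Without PBS replicate 2 it was -0.77 (limma adjusted p = 0.252). Gdf15 is also made by macrophages, and Kupffer cell and macrophage markers, of which 8 of 8 were measured and 0 were at 0, summed to 72.8 to 89.3 FPKM in the PBS livers and to 88.0 to 169 FPKM with HA, with overlapping ranges. Their part in the values was not tested.

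Fgf21 was at 7.44, 4.71 and 3.48 FPKM with PBS and at 3.97, 2.93 and 4.68 FPKM with HA (replicates 1 to 3). The groups overlapped, and PBS replicate 1 was the highest library. Between the groups the log2 fold change was -0.32 (SE 0.24, 95% interval -0.89 to 0.24, limma adjusted p = 0.516). It was -0.07 without PBS replicate 1, the library with adrenal and muscle transcripts, and -0.53 without PBS replicate 3, so its size rested on single control livers. The lowest value stood on 106 fragments, for which counting error alone gives an exact Poisson interval of 2.40 to 3.54 FPKM.

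The programme of PPARA and CREB3L3, the fasting-related transcription factors known to induce Fgf21, included 2 called genes. Of 15 genes tested, 2 were called lower and 13 did not pass. The sign was negative in 13, with a list median of -0.65 against -0.06 over all genes tested. Acaa1b, a thiolase of peroxisomal beta-oxidation, fell from 747 ± 88.5 to 346 ± 60.6 FPKM (limma adjusted p = 0.0411, n = 3 per group). Its call was lost with no filter (limma adjusted p = 0.0854) and without any single library other than HA replicate 2 (limma adjusted p = 0.0676 to 0.147). Plin2, a coat protein of lipid droplets, was at 150 ± 24.1 and 95.1 ± 13.6 FPKM and did not pass. Ppara and Creb3l3 themselves were at 41.0 ± 6.03 and 25.8 ± 6.91 FPKM and at 145 ± 13.8 and 106 ± 26.0 FPKM; neither passed, and they are named because they give the list its name.

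The integrated stress response, through which ATF4 is known to induce Fgf21 and Gdf15, showed no call in 12 tested genes of 15. The list median was -0.07, 5 were positive and 7 negative. Atf3, a stress-induced transcription factor, was at 1.16 ± 0.137 and 0.574 ± 0.287 FPKM (n = 3 per group), with all HA livers below all PBS livers (limma adjusted p = 0.153). Asns, asparagine synthetase, was at 0.470 ± 0.610 and 1.05 ± 0.529 FPKM, and Atf5 at 104 ± 36.3 and 141 ± 34.9 FPKM, with overlapping groups.

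None of the tested receptors passed. Of 15 genes listed, 13 were measured, 9 tested and 0 called, with a median of 0.15. Klb was at 5.49, 8.09 and 6.42 FPKM with PBS and at 7.41, 7.48 and 7.75 FPKM with HA, and the groups overlapped. Fgfr2 was at 3.52 ± 0.944 and 4.45 ± 0.749 FPKM. Fgfr1, the FGF21 receptor of fat tissue, was low at 0.387 ± 0.114 and 0.747 ± 0.335 FPKM, with all HA livers above all PBS livers (limma adjusted p = 0.306). Lag3, the receptor of FGL1 on T cells, was under the filter, at 0.563, 0.513 and 0.274 FPKM in the PBS livers and at 0.178, 0.144 and 0.158 FPKM with HA, and is named for that pairing after its values were seen.

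The activin subunit genes Inhbe and Inhbc are neighbours on mouse chromosome 10, with 0 annotated genes between them in RefSeq, and they did not vary together. Inhbe was at 48.7, 36.5 and 26.1 FPKM in PBS replicates 1 to 3 and at 10.6, 20.6 and 27.7 FPKM in HA replicates 1 to 3. The groups overlapped by 1 pair of livers, PBS replicate 3 and HA replicate 3. Its log2 fold change was -0.94 (SE 0.35, 95% interval -1.75 to -0.12, limma adjusted p = 0.227) and ran from -1.22 to -0.57 when 1 library was left out. Inhbc was at 27.2, 30.3 and 28.0 FPKM with PBS and at 26.4, 18.3 and 34.0 FPKM with HA, with the HA livers spread on both sides of the PBS livers. Its log2 fold change was -0.15 (SE 0.20, 95% interval -0.63 to 0.32, limma adjusted p = 0.722).

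Per length, Inhbe was above Inhbc in PBS replicates 1 and 2 and in HA replicate 2, and below it in the other 3 livers. The FPKM ratio of Inhbe to Inhbc was 1.79, 1.21 and 0.933 with PBS and 0.403, 1.13 and 0.813 with HA. HA replicate 1 was the lowest library, and the groups overlapped. In the annotation, Inhbc shares 268 bases of exon with an antisense transcript, which may add to its count.

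Other inhibin subunits were near or under the filter. Of 10 genes of the inhibin and activin family, its binders and antagonists, 9 were measured, 4 tested and 0 called. Smad7, an inhibitor of TGF-beta and activin signalling, was at 2.22, 1.41 and 2.06 FPKM with PBS and at 0.778, 0.801 and 1.13 FPKM with HA, all below the PBS livers (log2 fold change -0.60, SE 0.14, limma adjusted p = 0.0966). Follistatin (Fst), which binds activins, was at 0.414 ± 0.151 and 1.07 ± 0.458 FPKM, with all HA livers above all PBS livers (limma adjusted p = 0.169, n = 3 per group). Fstl1, a follistatin-like secreted protein, was at 1.01 ± 0.439 and 1.47 ± 0.522 FPKM.

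**Figure D4:**
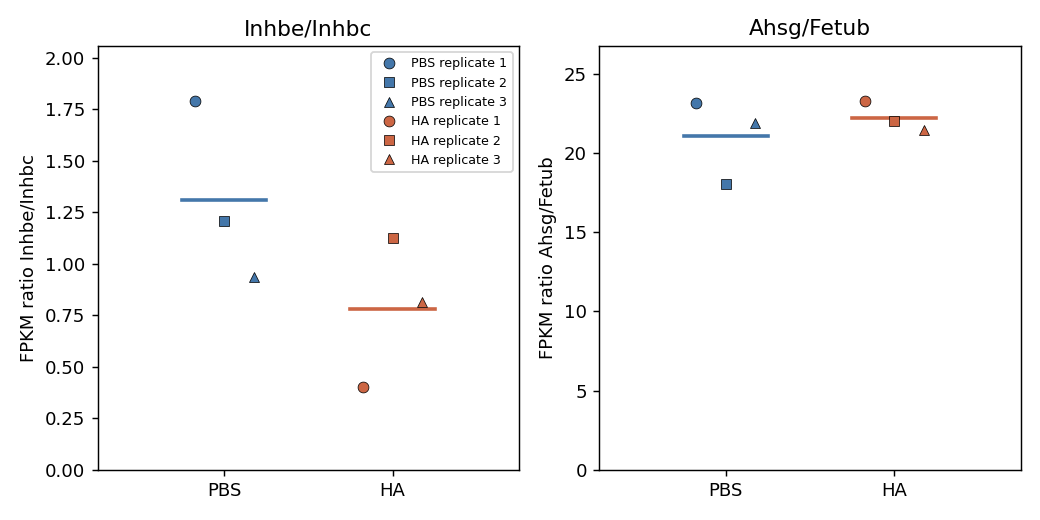
FPKM ratio of Inhbe to Inhbc (left) and of Ahsg to Fetub (right) in each library, with a bar at the mean of 3 and both axes starting at 0. The Inhbe to Inhbc ratio ranges from 0.403 to 1.79 over the 6 livers, whereas the Ahsg to Fetub ratio stays between 18.0 and 23.3.

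The fetuin genes are also near each other, on mouse chromosome 16, with 1 unnamed gene model between them. Ahsg was the most abundant member and 12th of all genes tested by mean level. It was at 4283, 4371 and 4211 FPKM in PBS replicates 1 to 3 and at 5303, 6105 and 6407 FPKM in HA replicates 1 to 3. The PBS livers differed little (coefficient of variation 1.88%), and all HA livers were above them. The means were 4288 ± 80.5 and 5939 ± 571 FPKM, 1.38-fold apart (log2 fold change 0.47, SE 0.12, 95% interval 0.18 to 0.75), and Ahsg did not pass over all genes (limma adjusted p = 0.119). The ratio of Ahsg to Alb overlapped between groups, at 0.107, 0.120 and 0.0883 with PBS and 0.0747, 0.10 and 0.0901 with HA. Alb was itself higher in all HA livers, so the ratio reflects both transcripts. An antisense transcript that shares 62 bases of exon with Ahsg was at most 1.71 FPKM in any library.

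Fetub was at 185, 242 and 192 FPKM with PBS and at 228, 277 and 299 FPKM with HA. The groups overlapped, since PBS replicate 2 was above HA replicate 1. The log2 fold change was 0.38 (SE 0.15, 95% interval 0.02 to 0.73, limma adjusted p = 0.261). The FPKM ratio of Ahsg to Fetub was 23.2, 18.0 and 21.9 with PBS and 23.3, 22.0 and 21.4 with HA, with PBS replicate 2 the lowest and the other 5 livers within 21.4 to 23.3.

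Of 5 other measured genes of the cystatin superfamily, 0 passed and the median was -0.19. The kininogen genes Kng1 and Kng2 were at 693 ± 23.7 and 1069 ± 174 FPKM and at 123 ± 7.59 and 169 ± 11.6 FPKM, with all HA livers above all PBS livers (limma adjusted p = 0.0902 and 0.0922, n = 3 per group). Their paralogy makes both uncertain, as fragments could have been split between them. Cstb, an intracellular cysteine protease inhibitor, was at 60.2 ± 2.41 and 47.9 ± 1.87 FPKM, with all HA livers below all PBS livers (limma adjusted p = 0.141).

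Igfbp2 was at 210, 273 and 220 FPKM in PBS replicates 1 to 3 and at 338, 652 and 401 FPKM in HA replicates 1 to 3. All HA livers were above all PBS livers, and HA replicate 2, the lowest HA liver for Enho and Fgl1, was the highest for Igfbp2. The means were 234 ± 33.9 and 464 ± 166 FPKM, a log2 fold change of 0.93 (SE 0.24, 95% interval 0.37 to 1.50), and Igfbp2 did not pass over all genes (limma adjusted p = 0.120). Leaving out HA replicate 2 gave 0.66, and leaving out HA replicate 1 gave 1.13.

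The rest of the IGF system showed no call. Of 9 genes measured, 8 were tested, with a median of -0.19, 2 positive and 6 negative. Igf1, the main growth factor of the system in liver, was at 69.8 ± 4.29 and 82.3 ± 12.4 FPKM and overlapped between groups. Igfbp4 was at 452 ± 26.7 and 358 ± 74.0 FPKM with all HA livers below all PBS livers (limma adjusted p = 0.315, n = 3 per group), and Igfbp5 at 1.74 ± 0.587 and 1.14 ± 0.620 FPKM.

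Angptl6 was the lowest member, at 3.18, 2.78 and 3.52 FPKM with PBS and at 1.90, 1.75 and 3.21 FPKM with HA. HA replicates 1 and 2 were below all PBS livers and HA replicate 3 was among them. The log2 fold change was -0.36 (SE 0.17, 95% interval -0.77 to 0.04, limma adjusted p = 0.324). In the annotation it shares 265 bases of exon with Shfl, an interferon-induced gene on the opposite strand, which was at 10.6, 11.8 and 7.16 FPKM in the PBS livers and at 18.6, 9.80 and 13.0 FPKM with HA. The level of Angptl6 is thus uncertain where strand was not used.

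Of 10 related angiopoietin-like and fibrinogen-domain genes, 8 were tested, 0 passed and the median was 0.40. Angptl8, an insulin-induced regulator of lipoprotein lipase, was at 31.6, 29.1 and 19.7 FPKM with PBS and at 35.3, 39.5 and 51.2 FPKM with HA, all above the PBS livers (limma adjusted p = 0.178). Fgb, the fibrinogen beta chain, was at 2179 ± 337 and 3359 ± 804 FPKM (limma adjusted p = 0.181, n = 3 per group).

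Nuclear receptors and targets that have been named for Enho held no call. Of 12 genes of LXR, ROR and REV-ERB, 0 passed, 6 were positive and 6 negative, and the median was -0.01. Nr1h3 (LXR alpha) was at 37.7 ± 2.30 and 31.5 ± 1.58 FPKM, with all HA livers below all PBS livers (limma adjusted p = 0.240, n = 3 per group). The cholesterol exporter gene Abca1 was at 19.2 ± 2.82 and 23.9 ± 2.89 FPKM, with overlapping groups.

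Of 20 tested genes for other secreted liver factors, 0 passed, 6 were positive and 14 negative, with a median of -0.19. Lect2, a hepatokine linked to insulin resistance, was at 65.0, 64.2 and 75.3 FPKM with PBS and at 38.2, 21.6 and 35.3 FPKM with HA, all below the PBS livers (log2 fold change -1.12, SE 0.21, limma adjusted p = 0.0650). Without HA replicate 2 it passed (log2 fold change -0.87, limma adjusted p = 0.0355). It did not pass without any other single library (limma adjusted p = 0.0787 to 0.211). Tsku (tsukushi), linked to energy balance, was at 28.8, 31.5 and 29.3 FPKM with PBS and at 2.49, 5.54 and 27.5 FPKM with HA (limma adjusted p = 0.219). HA replicate 3 was close under the lowest PBS liver, and without it Tsku passed (log2 fold change -2.69, limma adjusted p = 0.0233). That omission takes out the HA liver nearest to PBS, so the pass is no support for a difference. Tsku did not pass without any other single library (limma adjusted p = 0.306 to 0.430). Mst1, a hepatocyte growth factor-like protein, was at 43.7 ± 4.24 and 53.8 ± 1.55 FPKM (limma adjusted p = 0.211, n = 3 per group).

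**Figure D5:**
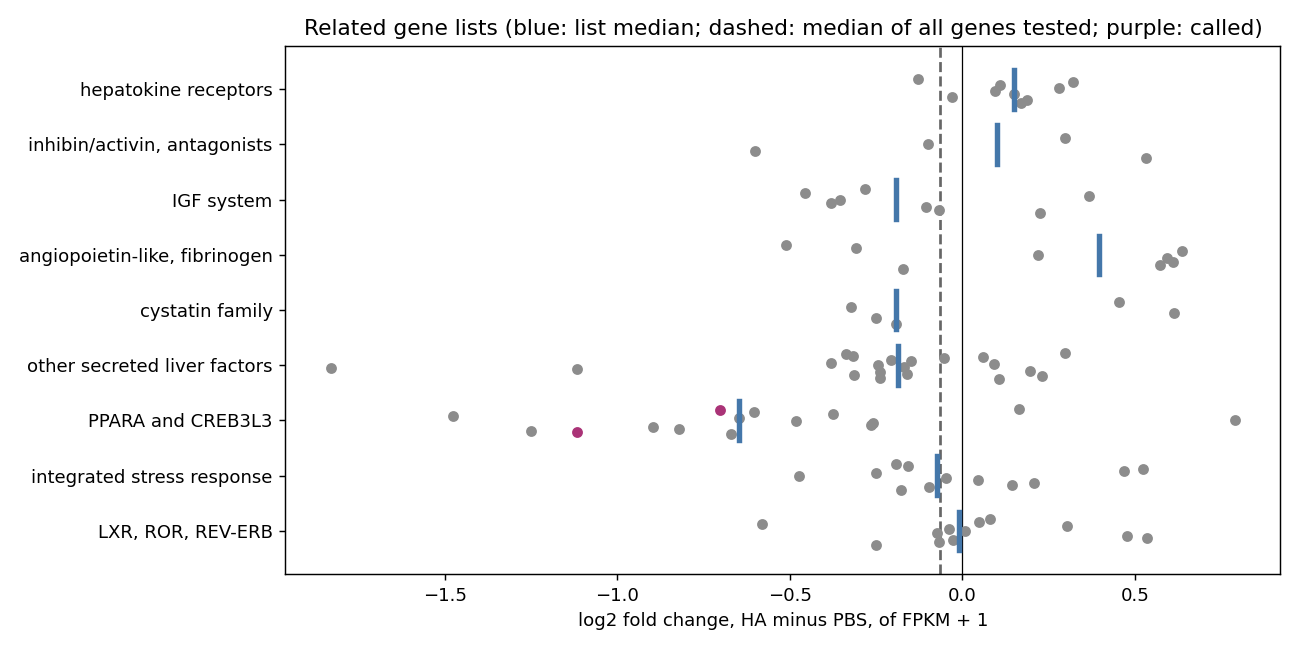
Log2 fold change of FPKM + 1, HA minus PBS, for each tested gene of the related lists, with the list median as a blue bar, the median of all genes tested (-0.06) as a dashed line and the 2 called genes, Acaa1b among them, in purple. The medians run from -0.65 for the PPARA and CREB3L3 list to 0.40 for the angiopoietin-like and fibrinogen list.

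Enho changed its place most in the order of levels. With PBS it ran Ahsg, Fgl1, Igfbp2, Fetub, Inhbe, Inhbc, Gdf15, Fgf21, Enho and Angptl6 by mean FPKM. The ranges of neighbours overlapped from Fgl1 through Fetub, from Inhbe through Gdf15, and for Fgf21 and Enho, so these neighbours were not separated by their spread. With HA, Enho moved from the 9th to the 6th place, between Inhbc and Inhbe, which swapped their order, and its range overlapped both of theirs. Igfbp2 and Fetub no longer overlapped, and Angptl6 overlapped Fgf21. Within the HA group, replicate 2 was the lowest liver for 6 of the 10 members and the highest for 1, and replicate 3 was the highest for 6 and the lowest for 0.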

How the data were processed

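The authors deposited 1 table of FPKM values with 1 column per liver. The unit was read from the values. Trimmomatic and HISAT2 with build GRCm39 are named, per the submitters' processing notes, with no versions. The counter, annotation and strand setting used in counting are named nowhere in the labels, and the labels' protocols name 2 library kits. Every column was mapped to a sample by its title.

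Ratios of low values gave back whole fragments for 99828 of 99828 values (100%, within 0.0001) and the library totals, which could still hide a common factor. Intervals from them cover counting error only. The libraries differed by at least 33.5 in chi-square per degree of freedom, so none was a copy of another.

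Log2(FPKM + 1) values were fitted with limma 3.58.1 (R 4.3.3), using a variance trend and treatment as the only term, where the 6 libraries averaged 0.5 FPKM or more. Log2 changes with this pseudocount understate the change of low genes, and a change called n-fold is a ratio of mean FPKM. Two-sided p-values were adjusted with Benjamini-Hochberg across the 10745 genes, with a threshold of 0.05. An exact permutation test of 3 against 3 cannot go below 0.1. The fit was tested on simulated data with a fixed spread that was not taken from these livers. That test does not show how reliable the calls are here.

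The members and lists were chosen with earlier results of these data known. The text names all members, up to 3 genes per list by smallest unadjusted p or every called gene, 3 closest profiles for Enho and for Fgl1, and Alb; some items that this rule takes in are not reported here. In the list of other secreted factors 1 entry was a second name of Gdf2 and was not counted as measured. Alternatives were a pseudocount of 0.1, no filter, a filter at a mean of 1 FPKM, median centring, rescaling to the fragments outside Alb, no variance trend, voom on recovered fragments, a replicate block and leaving out each library. Promoters and neighbours came from RefSeq and exon overlaps from GENCODE, both on GRCm38.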

Additional observations from a re-analysis of the deposited data

How the results depend on the processing

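With 3 livers per group, the calls of Enho and Fgl1 depended on the settings more than their sizes did. Over 14 alternatives the log2 fold change of Enho ran from 1.88 to 2.38 and passed in 8 (adjusted p 0.00205 to 0.122, limma), and that of Fgl1 from 1.35 to 1.74 and passed in 7 (adjusted p 0.0152 to 0.147, limma). The number of hepatokines called higher was 0 with no filter and 0 with a replicate block, and 0 to 2 when 1 library was left out. Over all genes tested, 7 were called higher and 10 lower with no filter, and 7 higher and 9 lower with a replicate block. The number called lower was 32 after median centring and 24 outside Alb, where 36 and 33 were higher. Leaving out 1 library gave 1 to 46 genes higher and 4 to 69 lower. The cause of these shifts was not tested, beyond the fewer samples and the more genes tested. Inhbc changed sign when 1 library was left out (log2 fold change -0.36 to 0.072, the highest without HA replicate 2). The other 7 members kept their direction and did not pass in any of the 14 alternatives. Replicate numbers did not pair the samples: the correlation of deviations from the group means, across genes, was -0.14, -0.13 and 0.18 for the 3 same-numbered pairs. With the replicate block Enho (adjusted p = 0.0593, limma) and Fgl1 (adjusted p = 0.116, limma) did not pass, nor did Acaa1b, Nipal1 and Slc3a1 (adjusted p = 0.0586, 0.0894 and 0.0677, limma). Depth was low for Fgf21 and Angptl6, at 106 to 328 fragments per library, and for Enho in the PBS livers, at 230 to 265.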
